A study of Rattus norvegicus with 6 samples.

Results

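Sterol and fatty acid synthesis genes under the sterol regulatory element binding proteins (SREBPs), and regulators of that pathway, were followed in kidneys of young Han:SPRD rats. These rats have an inherited cystic disease. The set was chosen by gene name and not by a cut on its values, but with earlier results of these data known. It held 31 genes: 19 of the sterol arm, 5 regulators and 7 of the fatty acid arm. All 31 were found on the array, through 45 of its 41012 probes, and 44 of those probes passed the filter on dim signals. Counts and values below are those of each gene's brightest probe unless another probe is named. The pools carrying the mutation were Cy/Cy (homozygous) and Cy/+ (heterozygous), and the wild-type pools were +/+, each taken at 7 and at 3 days of age. Total RNA of the left kidney was pooled by genotype and age and labelled with Cy5, and each pool shared its array with a Cy3-labelled +/+ pool of the same age, which is called the reference below. Every genotype therefore had 1 array at each age, 6 arrays in all, with no dye swap. The labels do not say how many animals entered a pool, so a p-value here reflects the scatter of these arrays alone, which may be technical. Where Cy/Cy and Cy/+ were set against the reference or each other, age was not fitted. The scatter there is that between a 7-day and a 3-day array, so it also holds any difference between the ages.

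SREBPs are membrane-bound transcription factors held in the endoplasmic reticulum by the escort protein Scap and its retention partners Insig1 and Insig2. When membrane sterol is low, Scap carries the SREBP to the Golgi, where it is cut, and the released part turns on genes of cholesterol synthesis and uptake (chiefly through Srebf2) and of fatty acid synthesis (chiefly through Srebf1). Insig1 is itself a target, and kidney tubule cells use the pathway to supply membranes.

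Promoters were read from RefSeq on rat assembly GRCr8 for the 24 members that matched by symbol, over 250 bases before and 50 bases from each gene's start. The box CCAAT, bound by NF-Y, a common partner of SREBPs, was found on either strand in 18 of the 24 (75%), 12 of them in the sterol arm, against 37.5% of all 33469 promoters in the table. The GC box GGGCGG was found in 20 (83.3%, against 33.1%) and the E-box CACGTG in 3 (12.5%, against 6.42%). The sterol response element TCACCCCAC was found in 0 of the 24 (0.484% of all promoters), and its shorter form TCACCCCA, which lies inside the longer one, in 1 (1.37% of all). Only these exact letters were searched, with no mismatch allowed, so other forms of an element were not counted. These matches describe letters and show no binding. Members were counted by gene and the whole table by promoter, with no matching for base composition. The 200 bases before the start are shown for Insig1 (chr4:8057770-8057969, minus strand), Hsd17b7 (chr13:84722755-84722954, minus strand) and Sc5d (chr8:51538278-51538477, minus strand), the 3 of the 5 members called higher in Cy/+ with a promoter in the table that carry CCAAT (Cyp51 and Fads2 do not), and for Srebf2 (chr7:115543107-115543306, plus strand), the single member with the shorter sterol element. Each reads 5′ to 3′ toward the gene, and capitals mark CCAAT on either strand (ATTGG when reversed), CACGTG and TCACCCCA.
Insig1: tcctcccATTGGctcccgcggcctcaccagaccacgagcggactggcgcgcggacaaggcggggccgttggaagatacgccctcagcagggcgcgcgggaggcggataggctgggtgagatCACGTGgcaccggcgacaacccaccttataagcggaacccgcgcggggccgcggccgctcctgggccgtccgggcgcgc
Hsd17b7: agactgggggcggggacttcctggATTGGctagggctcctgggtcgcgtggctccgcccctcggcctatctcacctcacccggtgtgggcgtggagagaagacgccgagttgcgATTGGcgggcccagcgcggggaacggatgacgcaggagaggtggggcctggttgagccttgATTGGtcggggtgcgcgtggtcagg
Sc5d: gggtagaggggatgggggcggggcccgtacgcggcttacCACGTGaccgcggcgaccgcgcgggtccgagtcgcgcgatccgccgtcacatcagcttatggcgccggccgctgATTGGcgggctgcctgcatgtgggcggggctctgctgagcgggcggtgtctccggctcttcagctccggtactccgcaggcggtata
Srebf2: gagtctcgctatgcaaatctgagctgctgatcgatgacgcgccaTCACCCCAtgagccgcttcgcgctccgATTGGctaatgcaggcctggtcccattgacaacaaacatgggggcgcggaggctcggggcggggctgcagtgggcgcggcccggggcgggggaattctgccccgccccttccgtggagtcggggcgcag
The Hsd17b7 window held CCAAT at 3 places, at -176, -86 and -25 from the start. Insig1 held 1 CCAAT at -193 and an E-box at -79, and Sc5d held 1 CCAAT at -87 and an E-box at -161.

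On each array 43379 spots other than controls were read, and 66.8% to 74.8% of them were well above background in Cy5 and 65.0% to 70.0% in Cy3. All 31 members were well above background in both channels, except Scd in Cy3 on the 3-day Cy/Cy and 3-day Cy/+ arrays. The Cy/Cy and Cy/+ arrays carried the 10 kidney markers, all well above background in both channels. The arrays labelled +/+ went against their label: their kidney markers had a median log2 ratio of -3.67 (7 days) and -4.20 (3 days), with liver markers at 4.36 and 4.84. They are therefore called the arrays labelled +/+ and are described last. The ages lay on separate slides, so age and slide cannot be told apart.

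**Figure D1:**
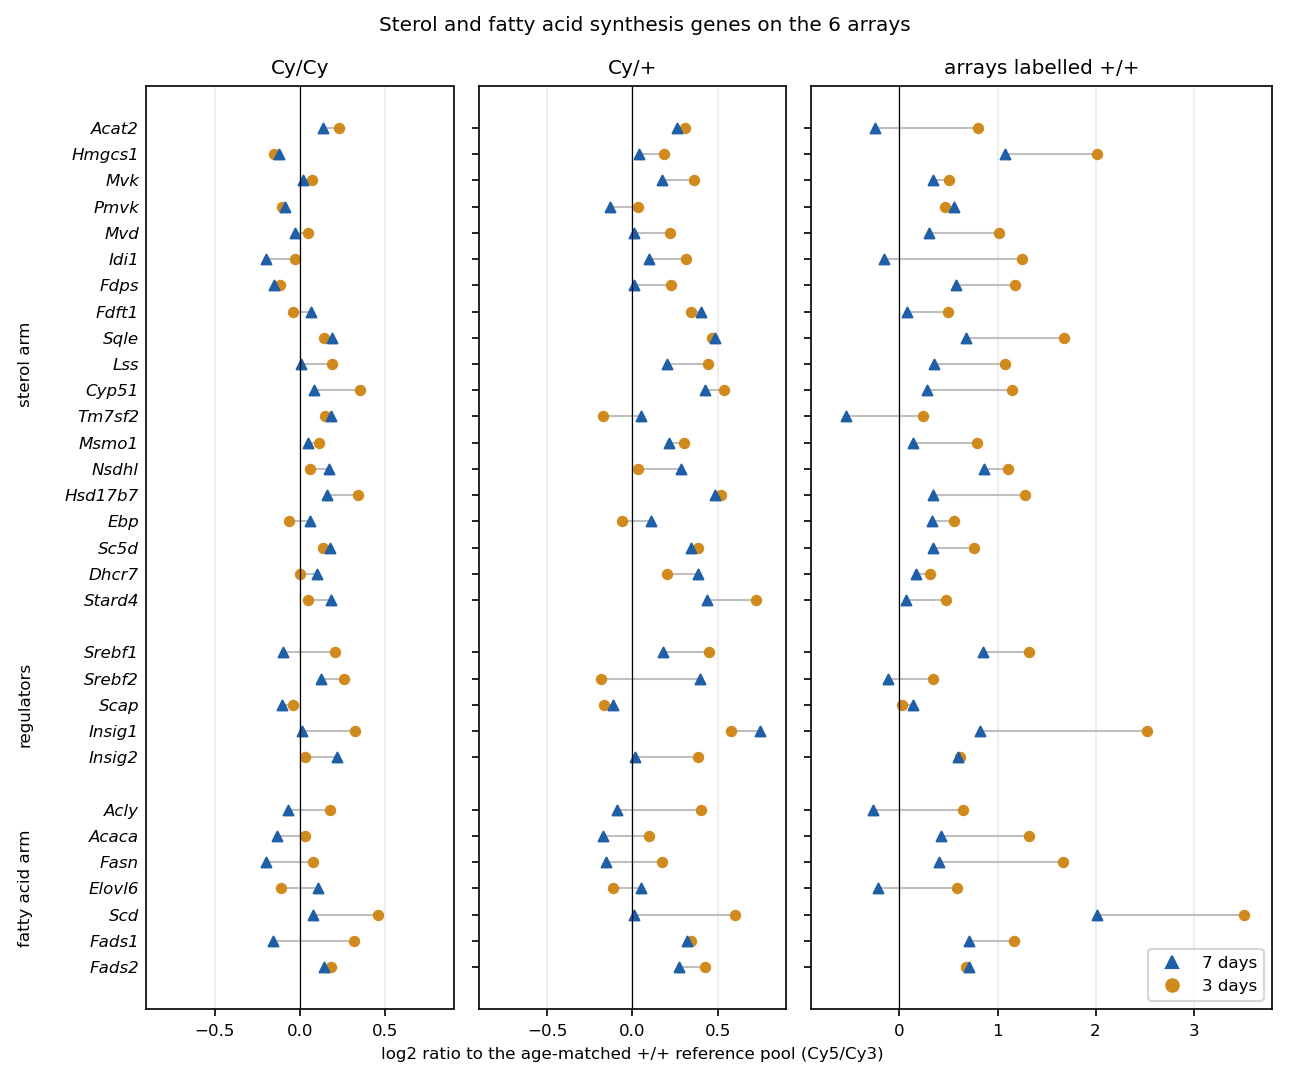
Log2 ratio of Cy5 to the Cy3 reference (x axis, wider range in the third panel) for each of the 31 members (rows, by arm) on the Cy/Cy arrays, the Cy/+ arrays and the arrays labelled +/+, with triangles for 7 days and circles for 3 days. Most sterol members lie to the right of 0 on both Cy/+ arrays, near 0 on the Cy/Cy arrays, and far to the right on the 3-day array labelled +/+.

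The first comparison asked how the heterozygous pools stood against their reference. In Cy/+ kidneys 8 of the 31 members were called at an adjusted p under 0.05, and all 8 were higher, against 8.09% of all 30880 probes called in either direction (4.74% higher, 3.35% lower). They were 6 of the 19 sterol members, 1 of the 5 regulators and 1 of the 7 fatty acid members. Of the sterol arm 17 of 19 lay above the reference in the fit, with a median log2 ratio of 0.27. All probes had a median of 0.00468, and 90% of them lay between -0.353 and 0.389. Since the filter took all 6 arrays, all probes include some at background on the Cy/Cy and Cy/+ arrays, such as that of Snap25. Counted on single arrays, 16 of the 19 sterol members were above 0 on both Cy/+ arrays, against 35.8% of all probes, and 1 of the 31 members (Scap) was below 0 on both, against 33.8% of all probes. In bulk RNA, more cells of a type and more RNA per cell cannot be told apart.

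The called sterol members were 5 enzymes and 1 carrier. Fdft1, squalene synthase, which takes the first step committed to sterols, had log2 ratios of 0.40 (7 days) and 0.34 (3 days) (fitted 0.37 ± 0.074 SE, n = 2 arrays, adjusted p = 0.0366, limma). Sqle, squalene epoxidase, had 0.48 and 0.47 (0.47 ± 0.071 SE, adjusted p = 0.0211). Cyp51, the lanosterol 14-demethylase, had 0.43 and 0.54 (0.48 ± 0.090 SE, adjusted p = 0.0331). These 3 enzymes were above the reference by much the same amount at both ages. Hsd17b7, the 3-ketosteroid reductase of the pathway, whose promoter with 3 CCAAT boxes is printed above, had 0.48 and 0.52 (0.50 ± 0.079 SE, adjusted p = 0.0235). Sc5d, the sterol C5 desaturase, had 0.34 and 0.38 (0.36 ± 0.071 SE, adjusted p = 0.0354). Stard4, a carrier that moves sterol between membranes, had 0.44 and 0.72, and its fitted ratio of 0.58 ± 0.093 SE (adjusted p = 0.0241) was the largest of the sterol arm. On build rn3 the probe for Hsd17b7 lies at chr13:85790775-85790834, for Sqle at chr7:96145679-96145738, for Cyp51 at chr4:26775187-26775246, for Fdft1 at chr15:42452206-42452265, for Sc5d at chr8:45239794-45239853 and for Stard4 across chr18:25672547-25675050. Exons were not analysed here.

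The other 13 sterol members did not pass. Lss, which closes the ring to lanosterol, had log2 ratios of 0.20 (7 days) and 0.44 (3 days) (0.32 ± 0.092 SE, adjusted p = 0.0776), and Dhcr7, which makes cholesterol from its last precursor, had 0.38 and 0.20 (0.29 ± 0.081 SE, adjusted p = 0.0736). Acat2, which joins acetyl-CoA units at the start of the pathway, had 0.26 and 0.31 (adjusted p = 0.0623). For these 3 both arrays lay above the reference without passing the test, as they did for the kinase Mvk (0.18 and 0.36) and for Msmo1, a sterol methyl oxidase (0.22 and 0.30). Hmgcs1, Mvd and Fdps had fitted ratios of 0.11, 0.11 and 0.12, and Pmvk and Tm7sf2 stood at -0.050 and -0.060, with 95% intervals that include 0. The dimmer probes of Hmgcs1 and Fdps read higher, at 0.22 (interval 0.0071 to 0.43, adjusted p = 0.162) and 0.29 (interval 0.091 to 0.48, adjusted p = 0.078), and were not called. Nsdhl and the sterol isomerase Ebp had fitted ratios of 0.16 and 0.026. Idi1, which interconverts the isoprene units, differed between its probes: the brighter had 0.096 and 0.32 (adjusted p = 0.182), while the dimmer had 0.45 and 0.63 (0.54, called). No other member with several probes had 1 probe called and another not in this comparison.

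Of the regulators, Insig1 alone was called. Its brightest probe (rn3 chr4:2577508-2577567, minus strand) had log2 ratios of 0.75 (7 days) and 0.58 (3 days) in Cy/+ kidneys. Both lay well above 0. The fitted ratio in Cy/+ was 0.66 ± 0.098 SE (1.58-fold, n = 2 arrays, adjusted p = 0.0208). The gene's 4 probes, which sit within 1 stretch of chromosome 4 and share the transcript, all passed, with fitted ratios between 0.62 and 0.73. Srebf1 had 0.18 at 7 days and 0.45 at 3 days on its brightest probe (0.32 ± 0.11 SE, adjusted p = 0.109). Another Srebf1 probe, printed at 10 spots per array, gave -0.062 and 0.062 with SDs over spots of 0.039 and 0.025, so the probes of this gene differ by more than the spread between spots. Srebf2 had 0.40 and -0.18 on its brightest probe, on opposite sides of the reference, while its dimmer probe had 0.043 and 0.12. Scap (-0.11 and -0.16) was below the reference on both arrays. Insig2 stood at 0.013 and 0.39, and its dimmer probe at 0.20 and 0.13. None of these 3 genes passed.

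**Figure D2:**
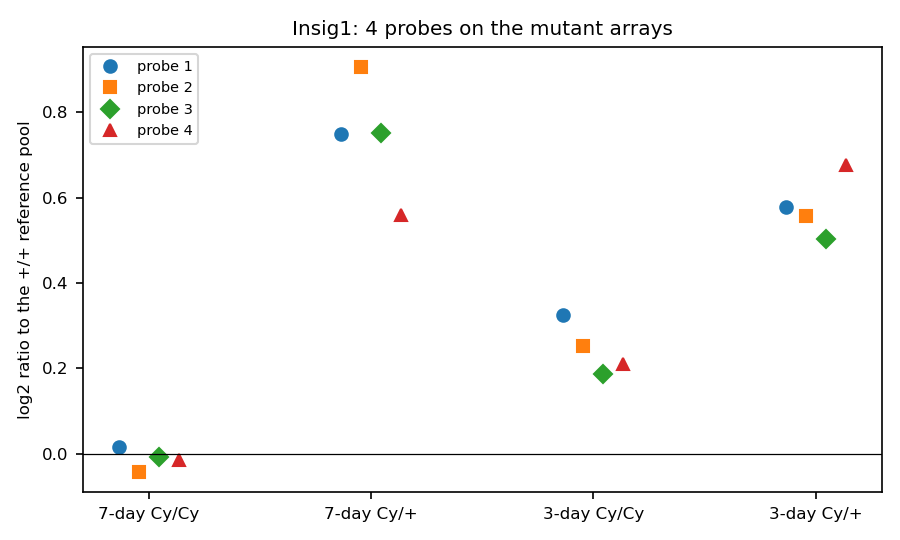
Log2 ratio to the reference (y axis) of the 4 Insig1 probes (marker shapes) on the 4 arrays of the mutant pools, in order 7-day Cy/Cy, 7-day Cy/+, 3-day Cy/Cy and 3-day Cy/+. At each age all 4 probes read higher in Cy/+ than in Cy/Cy.

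In the fatty acid arm 1 member, Fads2, the delta-6 desaturase of polyunsaturated fatty acids, was called in Cy/+. It had log2 ratios of 0.27 (7 days) and 0.42 (3 days) (0.35 ± 0.077 SE, n = 2 arrays, adjusted p = 0.0449, limma). Fads1, the delta-5 desaturase on the same chromosome, had 0.32 and 0.34 (0.33 ± 0.12 SE, adjusted p = 0.122). Both desaturases were above the reference at both ages. The enzymes that build the saturated chain did not hold a side: Acly, the source of cytosolic acetyl-CoA, had -0.088 at 7 days and 0.40 at 3 days, Acaca, which makes malonyl-CoA, had -0.17 and 0.099, and Fasn, the synthase itself, had -0.16 and 0.17. Scd, the delta-9 desaturase, had 0.0091 and 0.60, the 3-day ratio against a Cy3 signal that was not well above background. Elovl6, which lengthens the chain, had 0.051 and -0.11. The arm's median on single Cy/+ arrays was 0.00907 at 7 days and 0.341 at 3 days, against 0.216 and 0.308 for the sterol arm.

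The Cy/+ calls depended on the processing. With the scanner software's log ratios, and with loess on the software's processed signals, 0 members and 0 of all probes were called, although 17 of the 19 sterol members stayed above 0 in both. Without the 3-day Cy/+ array 1 member was called (Insig1), and without either Cy/Cy array, which lend their spread to the fit, 5 were.

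Marker lists of kidney, of other tissues and of the cell cycle were read on the same arrays. In 7-day Cy/+ kidneys the 7 adipose markers on the array had a median log2 ratio of 0.00803, and their summed level was 2024 in Cy5 against 1700 in Cy3. In 3-day Cy/+ kidneys their median was 2.01 and their sums 10350 against 2428. On the arrays of the mutant pools Lep (leptin) stayed at background, and Plin1 was above it in Cy5 of the 3-day Cy/+ array alone. The other 5 adipose markers were above background on all 4 arrays, and on the 7-day Cy/+ array they stood apart, with Lpl at 0.52, Fabp4 at 0.43, Cidea at 0.12, Adipoq at -0.12 and Retn at -0.14. Lpl, a lipoprotein lipase that other tissues make too, was the 1 of 6 tested adipose markers called higher in Cy/+ (0.63 ± 0.085 SE, adjusted p = 0.0174, limma). On that array the sterol median was 0.216, Insig1 stood at 0.75, and Scd, Acly and Fasn stood at 0.0091, -0.088 and -0.16. The 8 cell cycle markers had medians of 0.222 at 7 days and 0.384 at 3 days in Cy/+, with 2 of 8 called higher, and of 0.0231 and 0.328 in Cy/Cy, with 0 called. Kidney markers had medians of -0.177 and -0.422 in Cy/+, with 3 of 10 called lower and 1 higher. The part of adipose, cell cycle and kidney markers in the members' values was not tested. Over the 4 arrays of the mutant pools the medians of liver markers ran from -0.093 to 0.312, of skeletal muscle from -0.412 to 0.144, of adrenal from -0.0293 to 0.0348 and of brain from -0.0292 to -0.0153. Of the 8 adrenal markers 6 were at background on these arrays, while Cyp11a1 was called higher in Cy/+ (0.63, adjusted p = 0.0274). Of the liver markers Apob was called higher in Cy/+ (0.37, adjusted p = 0.0401), and albumin (Alb) read 1.64 on the 7-day Cy/Cy array and -1.18 on the 7-day Cy/+ array. The part of liver and adrenal markers was not tested.

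**Figure D3:**
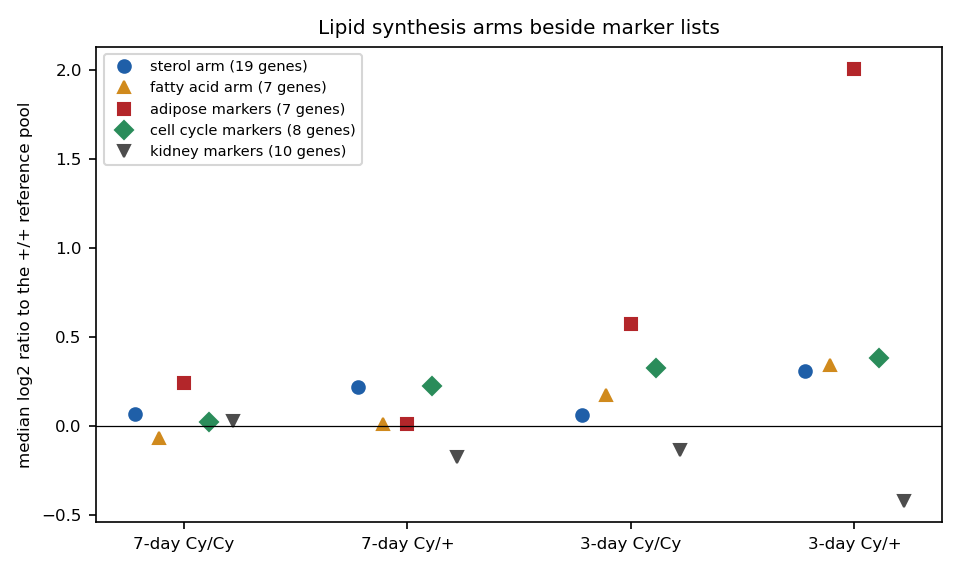
Median log2 ratio to the reference (y axis) of the sterol arm, the fatty acid arm and the adipose, cell cycle and kidney marker lists on each of the 4 arrays of the mutant pools (x axis). Adipose markers, of which Lep and Plin1 are near background, lie at 0.00803 on the 7-day Cy/+ array and at 2.01 on the 3-day one, and the sterol arm at 0.216 and 0.308.

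Other genes of lipid synthesis were counted from 2 lists. Of 18 measured genes of fatty acid and glyceride synthesis, 3 were called higher and 0 lower in Cy/+, against 4.74% and 3.35% of all probes. By sign alone 12 of the 18 lay above the reference and 6 below it. Acss2, which makes acetyl-CoA from acetate, had log2 ratios of 0.91 (7 days) and 1.135 (3 days) (1.02 ± 0.087 SE, adjusted p = 0.00697). Me1, malic enzyme, which makes NADPH for lipid synthesis, had 1.02 and 0.89 (0.95 ± 0.091 SE, adjusted p = 0.00791), and the acyltransferase Agpat2 had 0.28 and 0.55 (adjusted p = 0.0424). Acss2 and Me1 stood above every member in the fit. Thrsp, a lipogenic protein of fat and liver, had 0.011 at 7 days, where it was not well above background in either channel, and 1.34 at 3 days, and was not called. Of 18 genes of isoprenoid branches and sterol handling, 0 were called higher and 1 was called lower, the sterol exporter Abcg1 (-0.43 and -0.31, adjusted p = 0.0441, limma). By sign alone 9 of them lay above the reference and 9 below it.

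The second comparison set the homozygous pools against their reference. No member was called in Cy/Cy (limma), where 2 of all 30880 probes were (0.00648%, both higher) and 2666 had an unadjusted p under 0.05. At that unadjusted limit stood 3 of the 31 members, all above the reference, a share near that of all probes (2666 of 30880). Hsd17b7 had log2 ratios of 0.16 (7 days) and 0.34 (3 days) (0.25 ± 0.079 SE, adjusted p = 0.514), Cyp51 had 0.085 and 0.35, and Acat2 had 0.13 and 0.23. The sterol median was 0.0806, with 14 of 19 above 0, against a median of 0.00543 over all probes. On single arrays 12 of 19 sterol members were above the reference at both ages, where 31.9% of all probes were. Hmgcs1 (-0.12 and -0.15) and Fdps (-0.15 and -0.12) were below it on both arrays, as were Idi1, Pmvk and Scap, 5 of the 31 members against 27.3% of all probes. Second probes did not share this: Idi1's read 0.15 and 0.32 (fitted 0.24, adjusted p = 0.543), Fdps's 0.019 and 0.067, and Hmgcs1's 0.16 and -0.093. In the fatty acid arm Scd had 0.077 and 0.46 and Fads2 0.14 and 0.18, and of the regulators Srebf2 had 0.13 and 0.26, none of them past the test.

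No dyes were swapped, so a dye effect on these ratios was not tested. With median centring in place of loess, the median of all probes was 0.171 in Cy/Cy and 0.189 in Cy/+, and the sterol median was 0.403 and 0.746, which is 0.232 and 0.557 above all probes. With that setting 26 members were called in Cy/Cy, against 42.9% of all probes, and 29 in Cy/+, against 49.8%.

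Cy/Cy against Cy/+ was the third comparison. The reference drops out of it only if the Cy3 RNA was the same on both arrays of an age, which the labels do not say. It called 0 members and 0 of all probes (0%, limma), with 1886 probes at an unadjusted p under 0.05. In the fit 27 of the 31 members were lower in Cy/Cy, 18 of them among the 19 sterol members, with a sterol median of -0.225 against -0.00121 over all probes. Both Cy/Cy arrays lay below both Cy/+ arrays for 17 of the 31 members, 14 of them sterol members, against 18.5% of all probes. The 5 sterol members whose arrays overlapped or stood the other way were Pmvk, Mvd, Nsdhl, Ebp and Tm7sf2. At 7 days 17 of 19 sterol members were lower in Cy/Cy than in Cy/+ (median -0.168), and at 3 days also 17 of 19 (median -0.20), against medians of -0.00139 and -0.000402 over all probes. Marker lists moved as well, with 0 called in any: adipose markers had a median difference of -0.486 (5 of 6 lower in Cy/Cy), cell cycle markers -0.181 (8 of 8 lower) and kidney markers 0.324 (8 of 10 higher). Their part in the sterol difference was not tested.

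Insig1 had log2 ratios of 0.015 (7 days) and 0.33 (3 days) in Cy/Cy, against 0.75 and 0.58 in Cy/+ (difference -0.49, 95% interval -0.83 to -0.16, adjusted p = 0.758). Stard4 had 0.18 and 0.050 in Cy/Cy, against 0.44 and 0.72 in Cy/+ (-0.46, interval -0.78 to -0.15, adjusted p = 0.758). Fdft1 had 0.068 and -0.039 in Cy/Cy, against 0.40 and 0.34 in Cy/+ (-0.36, interval -0.61 to -0.11, adjusted p = 0.758). For each of these 3 the arrays of the genotypes did not overlap, and the difference did not pass the adjusted test. Sqle had 0.19 and 0.14 in Cy/Cy, against 0.48 and 0.47 in Cy/+ (-0.31, adjusted p = 0.80). Idi1 had -0.20 and -0.031 in Cy/Cy, against 0.096 and 0.32 in Cy/+ (-0.32, adjusted p = 0.811). Sc5d had 0.17 and 0.13 in Cy/Cy, against 0.34 and 0.38 in Cy/+ (-0.21, adjusted p = 0.823). Again the genotypes did not overlap and none passed. Tm7sf2, a sterol C14 reductase, ran the other way, with 0.18 and 0.15 in Cy/Cy, against 0.050 and -0.17 in Cy/+ (0.23, interval -0.054 to 0.50). Scap was the other member with both Cy/Cy arrays above both Cy/+ arrays, which 17% of all probes showed.

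In the fatty acid arm Fads1 and Fads2 were lower on both Cy/Cy arrays, though Fads1 differed by -0.474 at 7 days and by only -0.0238 at 3 days. Fads1 had -0.16 at 7 days and 0.32 at 3 days in Cy/Cy, against 0.32 and 0.34 in Cy/+ (-0.25, adjusted p = 0.866), and Fads2 had 0.14 and 0.18, against 0.27 and 0.42 (-0.19, adjusted p = 0.848). Fasn and Acaca differed by -0.068 and -0.016, with intervals from -0.44 to 0.30 and from -0.33 to 0.30. The arm's median difference was 0.0168 at 7 days and -0.0954 at 3 days. Srebf1 differed by -0.26 (interval -0.62 to 0.094). Its probe with 10 spots read -0.37 (SD over spots 0.045) in 7-day Cy/Cy, against -0.062 (SD 0.039) in 7-day Cy/+, and -0.013 (SD 0.042) in 3-day Cy/Cy, against 0.062 (SD 0.025) in 3-day Cy/+. On the 7-day slide these spots did not overlap between the genotypes. Spots of an array are no replicates of a genotype.

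**Figure D4:**
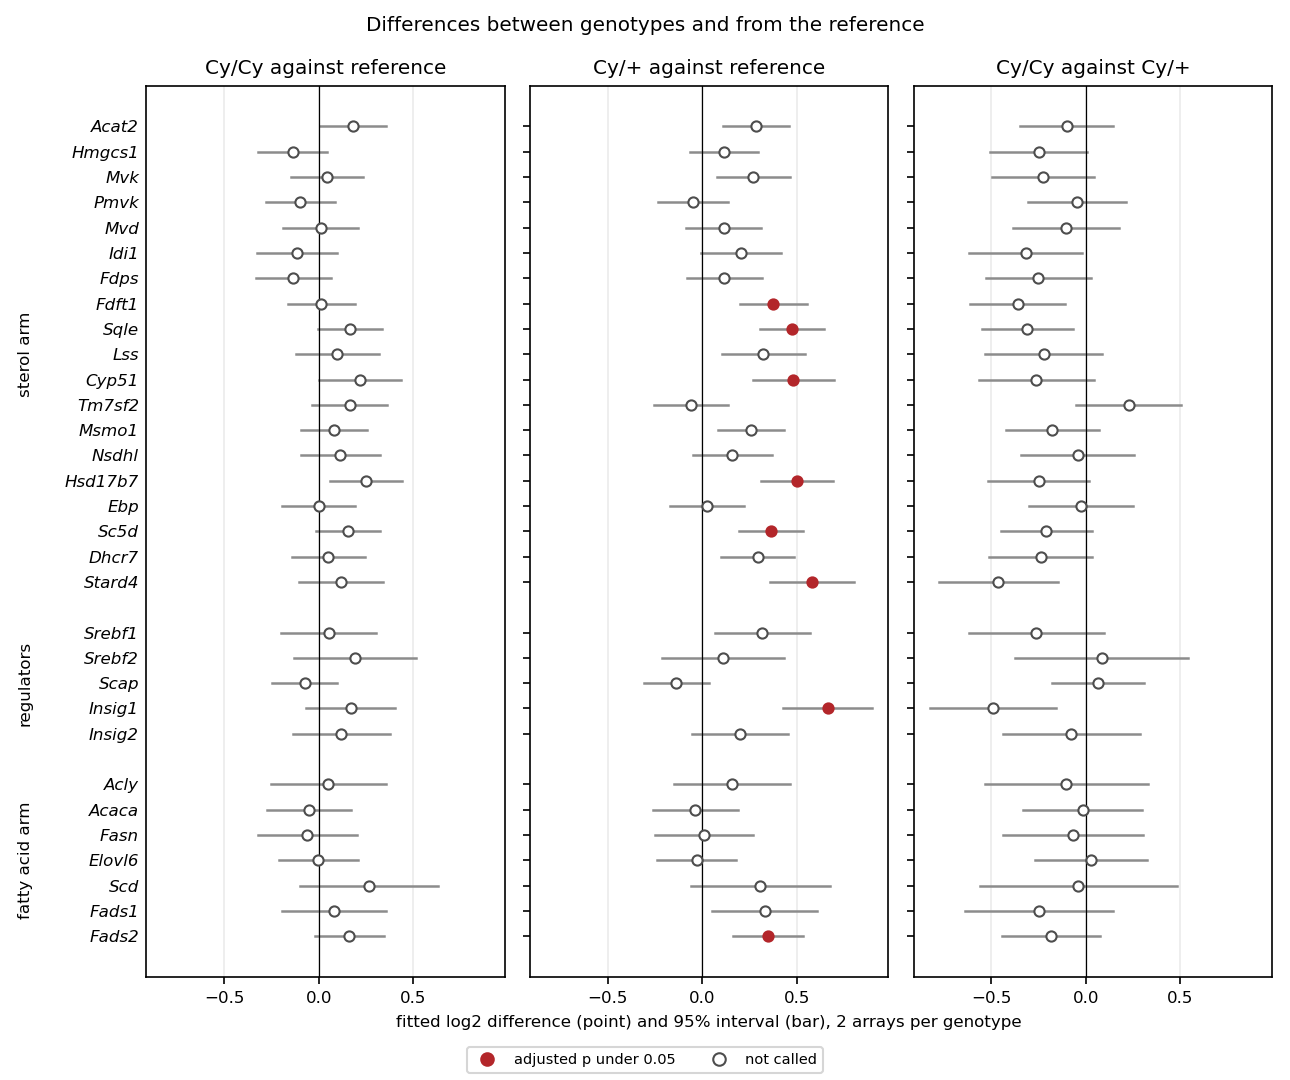
Fitted log2 difference (points) with 95% interval (bars) for each member (rows) in Cy/Cy against the reference, Cy/+ against the reference and Cy/Cy against Cy/+, from 2 arrays per genotype, with filled points for an adjusted p under 0.05. Only the middle panel has filled points, 8 in all, and in the third panel 27 of 31 points lie left of 0.

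The fourth comparison set 7 days against 3 days within the Cy/Cy, Cy/+ and reference pools, on single-channel levels. The sterol arm was higher at 7 days: 8 of 19 sterol members were called higher and 0 lower, against 9.79% of all probes called in either direction (5.48% higher, 4.32% lower), and 0 regulators and 0 fatty acid members were called on their brightest probe. The sterol median change was 0.255, against 0.00701 over all probes. By pool it was 0.288 in Cy/Cy, 0.209 in Cy/+ and 0.30 in the reference. In all 3 pools 13 of 19 sterol members were higher at 7 days, against 28% of all probes.

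Acat2 had the largest change, with log2 levels at 7 days of 13.70 in Cy/Cy, 13.80 in Cy/+ and 13.55 in the reference, against 13.07, 13.22 and 12.88 at 3 days (change 0.62 ± 0.066 SE, 3 pools, adjusted p = 0.0178, limma). Lss changed by 0.37 in Cy/Cy, 0.52 in Cy/+ and 0.66 in the reference (0.51 ± 0.080 SE, adjusted p = 0.026). Cyp51 changed by 0.46, 0.38 and 0.60 in the same order (0.48 ± 0.075 SE, adjusted p = 0.026). These 3 rose in every pool. Idi1 changed by 0.45, 0.34 and 0.58 (0.46, adjusted p = 0.028), and both of its probes were called, while for Fdps and Elovl6 1 of 2 probes was. Sqle changed by 0.34, 0.52 and 0.40 (0.42, adjusted p = 0.0287). Fdps, which joins isoprene units to farnesyl diphosphate, changed by 0.35, 0.21 and 0.41 (0.32, adjusted p = 0.047). Of the remaining calls, Tm7sf2 changed by 0.35, 0.37 and 0.24 (0.32, adjusted p = 0.0432) and Sc5d by 0.41, 0.22 and 0.31 (0.31, adjusted p = 0.048). Cyp51, Sqle and Sc5d were also among those called in Cy/+ against the reference, a comparison that uses the same arrays.

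Dhcr7, at the end of the pathway, stood lower at 7 days in all 3 pools (-0.31, -0.12 and -0.35 in Cy/Cy, Cy/+ and the reference, fitted -0.26 ± 0.077 SE, adjusted p = 0.0846) and did not pass. Stard4, Scap, Acaca and Fads2 were the other members lower in all 3 pools, a pattern of 25.4% of all probes. Insig1 changed by -0.21 in Cy/Cy, 0.34 in Cy/+ and 0.14 in the reference, and Srebf2 by -0.23, 0.53 and -0.076, so these regulators did not move one way. In the fatty acid arm Fads1 changed by 0.031, 0.42 and 0.475 and Scd by 0.036, -0.10 and 0.45. Of other genes of fatty acid and glyceride synthesis 0 were called higher and 5 of 18 lower at 7 days, against 5.48% and 4.32% of all probes. Among the 5 was Mlxipl, a sugar-sensing lipogenic transcription factor (-0.44 ± 0.068 SE, adjusted p = 0.026, limma). Of the 18 genes of isoprenoid branches and sterol handling 1 was called higher and 2 were called lower. By sign alone each of these lists had 6 genes higher and 12 lower. At the same time all 8 cell cycle markers were higher at 7 days and 5 of them were called (median change 0.432). The 6 tested adipose markers had a median of -1.18 with 0 called, and kidney markers a median of -0.0416. Their part in the sterol change was not tested. The reference enters with the mean of the Cy3 channels of the same arrays, so the 3 pools are not independent. Without the reference pool, and without the Cy/Cy pool, 0 members were called, and without the pool as a block 1 was (Acat2).

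**Figure D5:**
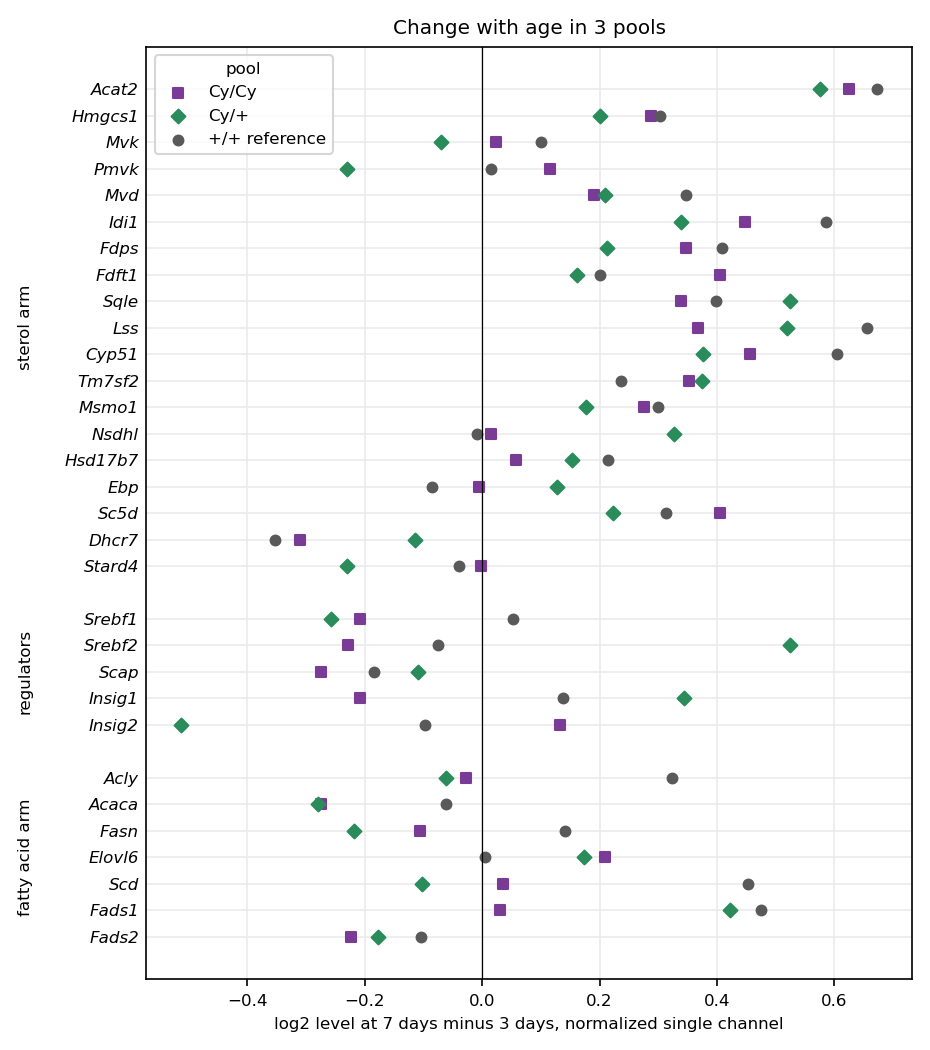
Log2 level at 7 days minus 3 days (x axis, normalized single channels) for each member (rows) in the Cy/Cy, Cy/+ and +/+ reference pools (marker shapes). Sterol members from Idi1 to Cyp51 lie right of 0 in all 3 pools, and the fatty acid members and regulators scatter around 0.

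The last comparison is the one the labels name, against the arrays labelled +/+, and its directions hold only as far as that label does. On these arrays 25 of 31 members were above the reference at 7 days (median log2 ratio 0.341, 2 of them at least 2-fold) and all 31 at 3 days (median 0.802, 15 at least 2-fold). Scd stood at 2.02 and 3.51, Insig1 at 0.82 and 2.53, and Hmgcs1 at 1.08 and 2.01. These arrays also held liver, adipose and skeletal muscle markers at medians of 4.36, 3.67 and 3.64 at 7 days and 4.84, 3.92 and 4.07 at 3 days, and the part of such tissues in the members' values was not tested. Their Cy3 channel differed too. Skeletal muscle markers summed there to 32400 at 7 days, against 690.8 on the Cy/Cy and 700.7 on the Cy/+ array. At 3 days they summed to 16470, against 509.3 and 508. The 31 members' Cy3 sums were closer, at 159700 against 160300 and 159500, and at 131200 against 136000 and 134200. Why the Cy3 channels differed was not tested.

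Against these arrays, 12 members were called lower in Cy/Cy and 0 higher, where 29% of all 30874 probes were called (18.4% lower, 10.6% higher). They were 6 sterol members, 1 regulator and 5 fatty acid members. In Cy/+ 9 members were called lower and 0 higher, against 29.7% of all probes called in either direction (18.7% lower, 11% higher). Scd had log2 ratios of 0.077 (7 days) and 0.46 (3 days) in Cy/Cy and of 0.0091 and 0.60 in Cy/+, against 2.02 and 3.51 on the arrays labelled +/+ (differences -2.50 ± 0.28 SE in Cy/Cy, adjusted p = 0.00251, and -2.46 in Cy/+, adjusted p = 0.00273). Hmgcs1, which makes the pathway's first committed thioester, had -0.12 and -0.15 in Cy/Cy and 0.041 and 0.19 in Cy/+, against 1.08 and 2.01 (-1.68 ± 0.25 SE, adjusted p = 0.00664, and -1.43, adjusted p = 0.0113). Srebf1 had -0.097 and 0.20 in Cy/Cy and 0.18 and 0.45 in Cy/+, against 0.85 and 1.32 (-1.03, adjusted p = 0.00294, and -0.77, adjusted p = 0.0081). For each of these 3 genes every mutant value lay below both values of the arrays labelled +/+.

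Fasn (0.41 and 1.66 on the arrays labelled +/+), Acaca (0.42 and 1.32), Fads1 (0.71 and 1.17), Fdps (0.58 and 1.18), Nsdhl (0.86 and 1.103) and Pmvk (0.55 and 0.47) were called lower in both genotypes, with differences from -1.09 to -0.56 on the log2 scale. The dimmer Acaca probe was not called in either genotype, the dimmer Fasn probe was not called in Cy/+, and the dimmest of 3 Srebf1 probes was not called in either. Nsdhl, a sterol decarboxylase, had 0.17 and 0.060 in Cy/Cy and 0.28 and 0.034 in Cy/+, and Pmvk, phosphomevalonate kinase, had -0.088 and -0.11 and -0.13 and 0.030. Sqle (0.68 and 1.68), Lss (0.35 and 1.08) and Fads2 (0.71 and 0.68) were called in Cy/Cy only, with differences of -1.01, -0.62 and -0.53, and whether the genotypes differ there is what the third comparison tested. Of the other members with values given above, the arrays labelled +/+ read 0.28 and 1.14 for Cyp51, 0.34 and 1.28 for Hsd17b7, 0.34 and 0.76 for Sc5d, 0.073 and 0.49 for Fdft1, and 0.066 and 0.48 for Stard4. They read -0.25 and 0.80 for Acat2, -0.16 and 1.25 for Idi1 and -0.54 and 0.24 for Tm7sf2, which lie on both sides of the reference. Without the 7-day array labelled +/+ 23 members were called in Cy/Cy and 20 in Cy/+. In Cy/Cy 4 were called without its 7-day array, 1 without its 3-day array and 7 without either Cy/+ array, and in Cy/+ 1 was called without either of its own arrays.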

How the data were processed

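RNA from left kidneys, pooled by genotype and age, was hybridised to 6 Agilent arrays in 2 colours, Cy5 for the named pool and Cy3 for an age-matched +/+ pool, per the labels. Array design and software are named differently in the series text and in the scanner files, and the scanner files were followed: per the file headers, scans were read with Feature Extraction 9.5.1.1 and probe positions are on build rn3. Deposited mean signals and backgrounds are intensity values without normalization, and processed signals are intensity values after the software's background subtraction and dye normalization, per the file headers. Deposited log ratios are on the log10 scale, Cy5 over Cy3, per the file headers, and the series table holds the same values.

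Signals were corrected with normexp (offset 50) and normalized within arrays by loess (limma 3.58.1 under R 4.3.3), and spots of a probe were averaged. A probe was kept where at least 1 channel was well above background on 2 or more arrays (30902 of 41012). Models were fitted to the log2 ratios computed from the deposited intensities with lmFit and eBayes over all kept probes, with Benjamini-Hochberg adjustment over all of them and a threshold of 0.05. The Cy/Cy and Cy/+ arrays gave 1 mean per genotype, with no age term (2 residual degrees of freedom, prior 4.64). The means were tested against 0 and against each other, which leaves out the reference's own spread. All 6 arrays with age as a term gave the comparison with the arrays labelled +/+, and single channels after Aquantile normalization with pool as a block gave the change with age. Each member stands for its brightest probe, and 10 members had several. The fits were also tested on simulated data, where the share of changes recovered and of false calls depended on the noise assumed, and that noise model was changed after a first result had been seen, so no power or error rate is given.

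Members, lists and tests were chosen with earlier results of these data known. Each array's values are given for members called in any comparison, and otherwise for the 3 sterol members, 2 fatty acid members and 1 regulator that differed most, and further members are named to account for all of them. The alternatives tried are in the closing section.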

Additional observations from a re-analysis of the deposited data

Results flagged for a closer look

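For 5 members the ratio to the reference lay on one side on both 7-day arrays of the mutant pools and on the other side on both 3-day arrays. Acly had log2 ratios of -0.071 in Cy/Cy and -0.088 in Cy/+ at 7 days, against 0.18 and 0.40 at 3 days, a difference of -0.368 (7 minus 3 days). Fasn had -0.20 and -0.16 at 7 days, against 0.079 and 0.17 at 3 days (-0.304), and Acaca had -0.13 and -0.17, against 0.028 and 0.099 (-0.216). These 3 enzymes of saturated fatty acid synthesis were below the reference at 7 days and above it at 3 days, as were 4.25% of all probes. A second Fasn probe ran the same way, but a second Acaca probe did not, with -0.054 in Cy/Cy and 0.060 in Cy/+ at 7 days, against 0.15 and 0.14 at 3 days. Elovl6 (0.187) and Ebp (0.146) ran the other way, as did 4.97% of all probes, but a second Elovl6 probe did not, with -0.11 and -0.14 at 7 days, against -0.070 and 0.064 at 3 days. The test of the difference itself, with age as a term beside genotype over the 4 arrays, was added after the ratios had been seen. None of the 5 passed it (adjusted p between 0.387 for Acly and 0.713 for Ebp, limma), and it called 15 of all 30880 probes (0.0486%). Age and slide cannot be told apart here.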

How the results depend on the processing

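The median of the sterol arm kept its direction under every alternative run in 5 of the 6 comparisons. In Cy/+ against the arrays labelled +/+ it was -0.309, and it turned to 0.0269 with scaling between arrays and to 0.0234 without the 3-day array labelled +/+. Counts of called members were less steady, and the causes were not tested. For Cy/+ against the reference (8) they were 0 with the software's log ratios, 0 with loess on processed signals, 4 with scaling between arrays, 13 with age as a block and 29 with median centring, and 1 to 8 when an array was left out. For Cy/Cy against the reference (0) the count was 26 with median centring and 0 without any 1 array. The sterol median there was 0.403 with median centring, 0.116 with scaling and 0.0597 to 0.0806 without an array, and in Cy/+ it was 0.746 with median centring and 0.216 to 0.308 without an array. For Cy/Cy against Cy/+ it was -0.309 with median centring, -0.25 with loess on processed signals and -0.269 to -0.16 without an array, and no alternative called a member. Against the arrays labelled +/+, Cy/Cy (12) had 4 calls with the software's ratios, 6 with scaling and 1 to 23 without an array, and Cy/+ (9) had 4 with the software's ratios, 4 with median centring, 4 with scaling and 1 to 20 without an array. Their sterol medians without an array ran from -0.676 to -0.186 and from -0.568 to 0.0234. For 7 against 3 days (8) the count was 1 with scaling to the 75th percentile, 1 without the pool as a block, 5 with the reference taken from all 3 arrays of an age, and 0 to 11 when a pool was left out, with sterol medians of 0.244 to 0.294. No single called member changed direction under an alternative. Having 1 pool per genotype and age and 2 arrays per genotype limits the precision. Without a dye swap, a dye effect cannot be told apart from a difference between a pool and its reference.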
